A study of Homo sapiens with 4 samples.

Results

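The genes described here are 36 interferon-stimulated effectors that lie outside the large interferon-induced families, read on exon arrays of T-47D cells that had received an artificial microRNA or a control. T-47D is an established line of luminal, hormone receptor-positive breast cancer. A member was matched where a probeset, a small group of array probes that reads about 1 exon or a piece of one, named that gene alone, either by its current symbol or by the older symbols C19orf66 (SHFL), PRIC285 (HELZ2) and NT5C3 (NT5C3A). Of the 36 members, 34 were matched, through 467 of the 232479 probesets and among 16544 named genes. DDX60L and PHF11 were not analysed here. Another 1, IFITM3, had a probeset only in the dimmest part of the table, and 33 members were tested.

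The study held 4 samples. The mimic group was 2 arrays of cells transfected with a p-27-5p mimic at 200 nM, and the control group was 2 arrays of cells given a pre-miR negative control. Both groups were the same line, grown in DMEM with serum and transfected with TurboFect, and the labels give neither the dose of the control nor the time to RNA extraction. No label ties the 2 arrays of either group to different cultures, so the spread behind every p-value is that between these samples and may be only technical. The members were chosen with earlier results of these data known, so their counts are a description of this set and no test of it.

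Interferons are secreted when a cell senses foreign nucleic acid. On binding their receptors they activate the kinases JAK1 and TYK2, and factors that include STAT2 and IRF9 then bind the interferon-stimulated response element in promoters. The genes switched on in this way include effectors that act directly on a virus or on the infected cell. Some members sit in membranes and hinder virus entry or release, some are GTPases or enzymes of nucleotide metabolism, some act on RNA or translation, some belong to nuclear bodies, and others act at mitochondria or in cell death.

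All values are log2 levels, a gene's level being the mean of its probesets, with n = 2 arrays per group. The test was limma on all 15709 genes that passed a filter on dim probesets, a two-sided test with p-values adjusted by Benjamini-Hochberg and called under 0.05, and a gene is said to have risen only where it passed. A gene's brightest probeset is that with the highest mean over all 4 arrays. The mimic arrays thus had a part in that choice, and its value is no independent check. Arrays of a group correlated over all probesets with r = 0.985 for the mimic and 0.984 for the control, against 0.966 to 0.973 between groups. As a guide to the level of unexpressed genes, 13 measured genes of liver and neurons had a median of 4.74 in the control arrays, with SYT1 highest at 6.85 and the next at 5.84. Between mimic and control these 13 had a median difference of 0.23, with 10 above 0 and 0 called. They ran from -0.42 (SYT1) to 1.26 (APOC3), so this level was not fixed between the groups. The 13 luminal markers had a median of 9.68 in the control arrays. ESR1 lay at 9.17 and 9.21 there and PGR at 11.39 and 11.65, so both hormone receptors of the labelled line were read. The lowest of the 13 was TFF1, whose mean of 6.43 lay under that of SYT1, and 1 of the 13, TFF3, fell (-0.99). Another 4 luminal markers were lower at an unadjusted p under 0.05 but were not called, namely PGR (-0.60), KRT19 (-0.48), ESR1 (-0.42) and SPDEF (-0.38), and the part of this in the members' values was not tested. Leukocyte and fibroblast markers lay lower, with medians of 5.52 and 4.90, and the pan-leukocyte gene PTPRC lay between 4.33 and 4.94 on the 4 arrays. The highest leukocyte marker, CD3E, had 7.43 and 7.33 in the control arrays, above SYT1, and the reason was not tested. Limma called 0 of the 9 leukocyte and 0 of the 8 fibroblast markers measured (1 and 2 had an unadjusted p under 0.05). In bulk RNA, a change in the number of cells with a transcript and a change in its amount per cell cannot be told apart.

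Of the 33 members tested, 32 rose and 1, XAF1, did not pass. Over all genes tested, 2.32% were called in either direction and 1.53% were called higher. On all 33 members both mimic arrays lay above both control arrays, which held for 20.5% of all genes. The members' median difference was 2.95, ranging from 1.23 to 6.50, while the median of all genes tested was 0.00. Differences of at least 2 were seen in 28 members and of at least 4 in 11, and 27 members were among the 100 largest increases of the table. On probesets that reached the filter level in the control arrays alone, 32 of 33 members rose as well, with a median of 2.94, and 1.25% of all genes were called higher. The count of members that rose was 31 without mimic replicate 1, 32 without mimic replicate 2 and 33 without either control replicate 1 or control replicate 2, while the share of all genes called higher was 1.02%, 1.07%, 6.25% and 2.57%.

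**Figure D1:**
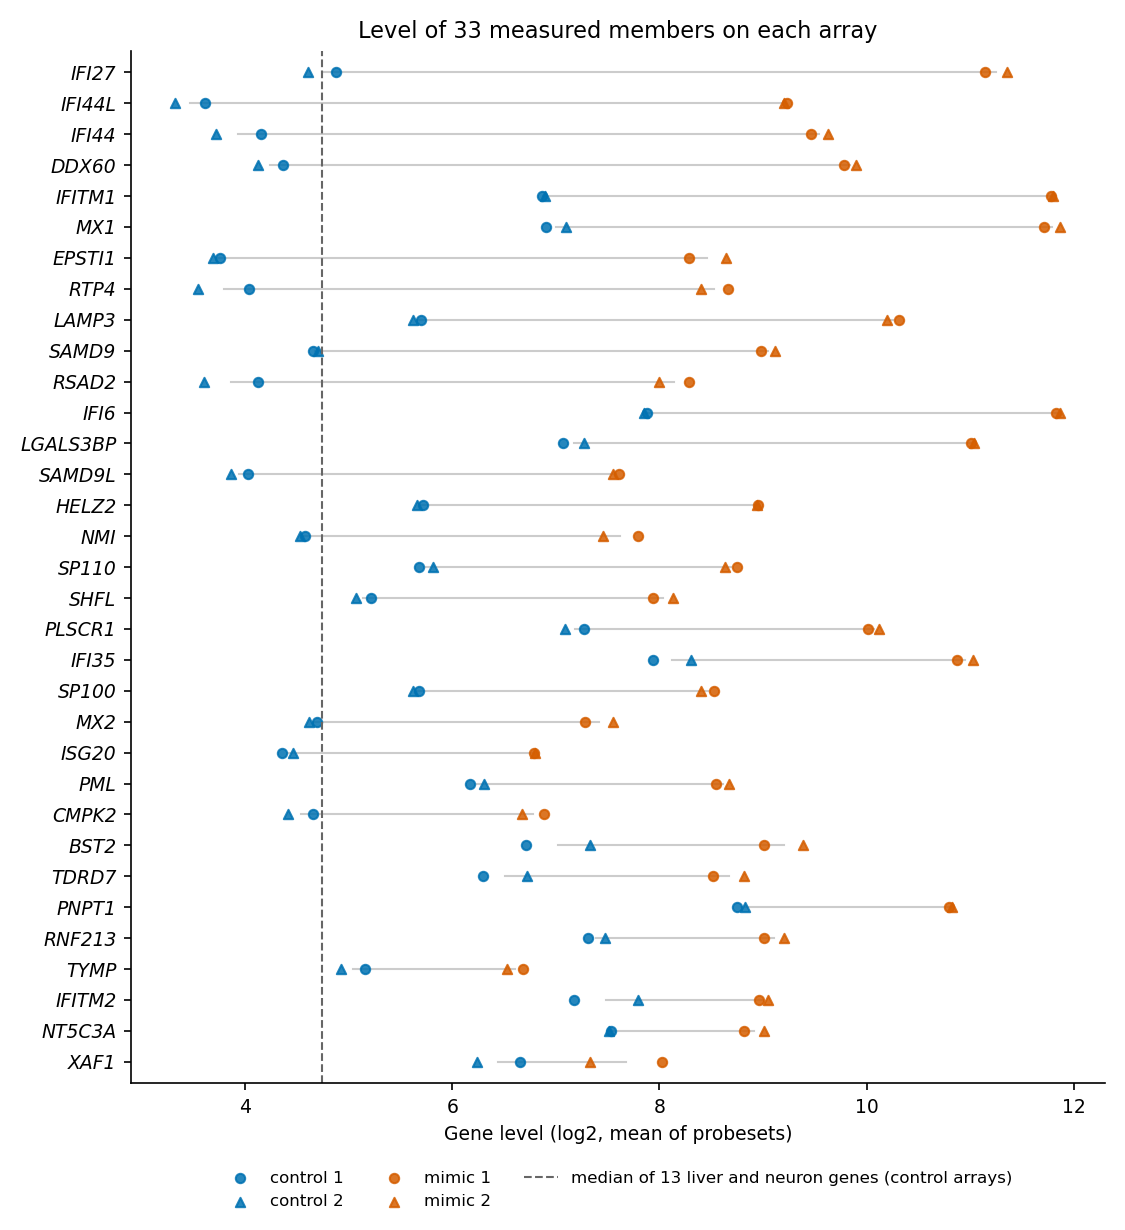
Log2 level of each of the 33 measured members (rows, ordered by difference) on the 2 control arrays (blue) and the 2 mimic arrays (orange), with a grey line joining the group means and a dashed line at the median control level of liver and neuron genes, 4.74. On every row the orange points lie to the right of the blue ones, and the mimic levels of the members range from 6.60 to 11.85.

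The spread between arrays of a group was small beside the larger of these differences but not beside all of them. The largest SD was 0.436 in the control arrays, for BST2 (difference 2.18), and 0.493 in the mimic arrays, for XAF1 (difference 1.23). Mimic replicate 1 was above mimic replicate 2 in 12 of 33 members, and control replicate 1 was above control replicate 2 in 20, with median gaps of -0.05 and 0.06. Control levels ran from 3.47 to 8.79. Those of 12 members lay under the median of the liver and neuron genes and those of 22 at or under the highest of them, so that for these the fold may understate the change. In the mimic arrays no member lay at or under 5.84, the second highest level of these genes in the control arrays. The mimic level of 3 members lay at or under the highest such control level, 6.85. In the mimic arrays themselves the highest of the liver and neuron genes was SYT1 at 6.43, and the lowest member was TYMP at 6.60. Across the 33 members the Spearman correlation of control level and difference was -0.51, as a description, since both quantities share the control arrays.

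**Figure D2:**
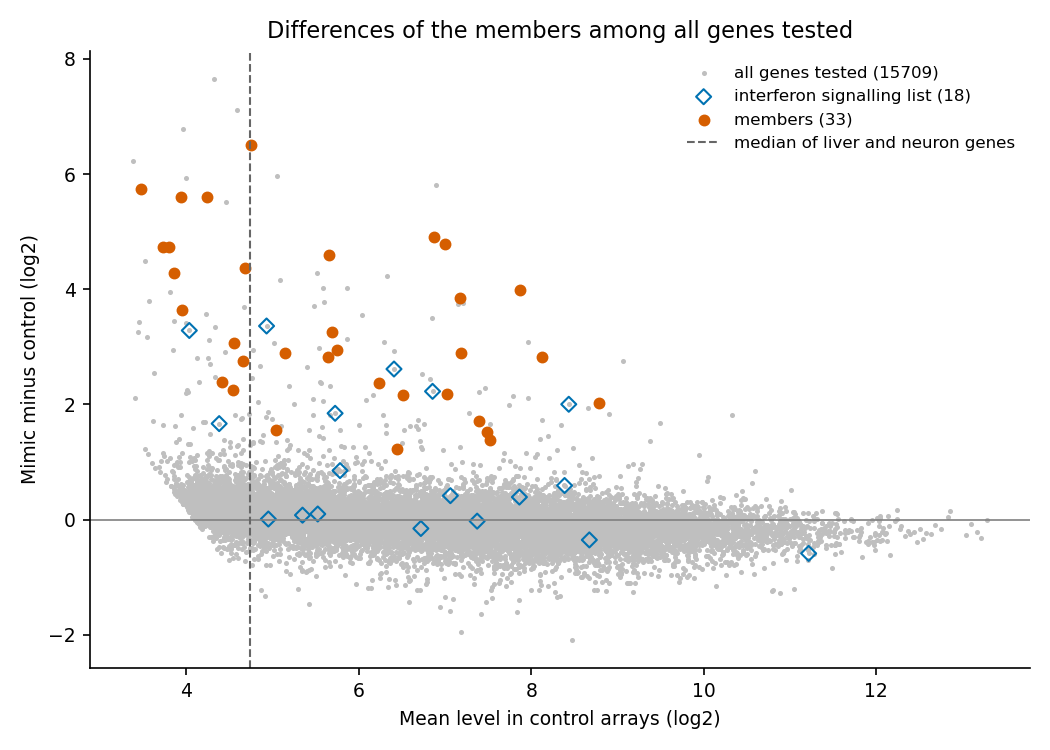
Difference between mimic and control (log2) against mean control level (log2) for all 15709 genes tested (grey points), the 33 members (orange) and 18 genes of interferon signalling (blue diamonds), with the median control level of liver and neuron genes as a dashed line. The members span control levels from 3.47 to 8.79 and all lie above 1.2, while the grey cloud is centred on 0.

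The RefSeq promoter windows of build GRCh38.p14 run from 250 bases before a gene's start to 50 bases after it. They were searched for the core of the interferon-stimulated response element, GAAANNGAA, on both strands, overlapping matches included. A window was matched by symbol for 31 of the 36 members, and IFITM2, MX2, LAMP3, PML and PHF11 were not matched. The core was found in 21 of these 31 members (67.7%), against 9.86% of the 27305 genes with a window, and in 57.8% of the members' 45 windows against 8.11% of all 35116. Of the genes of interferon signalling described below, 17 had a window and 4 of these held the core (23.5%). The members were picked as interferon-stimulated genes, so a high share follows from that choice and is no test of why their levels differ. Among members that were also measured, the 19 with a match had differences with a median of 4.28, the lowest being 2.16. The 10 with no match had a median of 2.42 and lay between 1.23 and 3.64. A match is a description of the letters and not a shown binding site. Stretches before the start from 8 members are given 5′ to 3′ on the gene's own strand, with the matches in capitals. They were picked to show repeated matches (RTP4, IFI6, BST2), the neighbours DDX60 and DDX60L, and the lone matches of EPSTI1 and SAMD9. Also shown is the pair on opposite strands of IFI27, the member with the largest difference. The first match of IFI27 is on the other strand and reads TTCNNTTTC.
RTP4, chr3:187368313-187368384, plus strand: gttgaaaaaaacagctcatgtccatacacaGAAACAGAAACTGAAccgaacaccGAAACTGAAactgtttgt
IFI6, chr1:27672247-27672378, minus strand: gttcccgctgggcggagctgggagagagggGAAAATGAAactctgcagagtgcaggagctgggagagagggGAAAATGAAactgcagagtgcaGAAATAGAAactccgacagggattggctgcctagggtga
BST2, chr19:17405716-17405790, minus strand: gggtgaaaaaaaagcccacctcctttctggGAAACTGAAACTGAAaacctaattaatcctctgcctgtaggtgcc
DDX60, chr4:168318767-168318870, minus strand: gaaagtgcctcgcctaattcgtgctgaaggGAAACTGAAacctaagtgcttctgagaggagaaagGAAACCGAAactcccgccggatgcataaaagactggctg
DDX60L, chr4:168480504-168480602, minus strand: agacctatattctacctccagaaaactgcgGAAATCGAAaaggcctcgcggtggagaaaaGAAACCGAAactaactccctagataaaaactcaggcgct
IFI27, chr14:94110599-94110679, plus strand: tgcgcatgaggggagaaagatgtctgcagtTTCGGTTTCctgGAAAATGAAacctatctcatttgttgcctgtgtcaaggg
EPSTI1, chr13:42992253-42992321, minus strand: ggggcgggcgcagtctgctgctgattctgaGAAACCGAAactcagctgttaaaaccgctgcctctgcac
SAMD9, chr7:93118077-93118145, minus strand: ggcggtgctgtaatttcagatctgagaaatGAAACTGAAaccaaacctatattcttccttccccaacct

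The matches in RTP4 are 3 within the last 42 bases before its start, of which the first 2 overlap, and BST2 has a like overlapping pair further out, the nearer at position -124. IFI6 has 3 matches, at -156, -115 and -93 from its start. In DDX60 the matches lie at -88 and -53, and in DDX60L at -80 and -50. CMPK2 and RSAD2 share 1 match, the same 9 bases starting at position 6865806 of chromosome 2, which lies at -79 from an RSAD2 start and after a CMPK2 start. For CMPK2 and TDRD7 the matches lay only after a start. No match was found in the windows of IFI35, SAMD9L, XAF1, HELZ2, SP100, SP110, NT5C3A, PNPT1, RNF213 and TYMP, which says only that these letters are not in those windows.

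**Figure D3:**
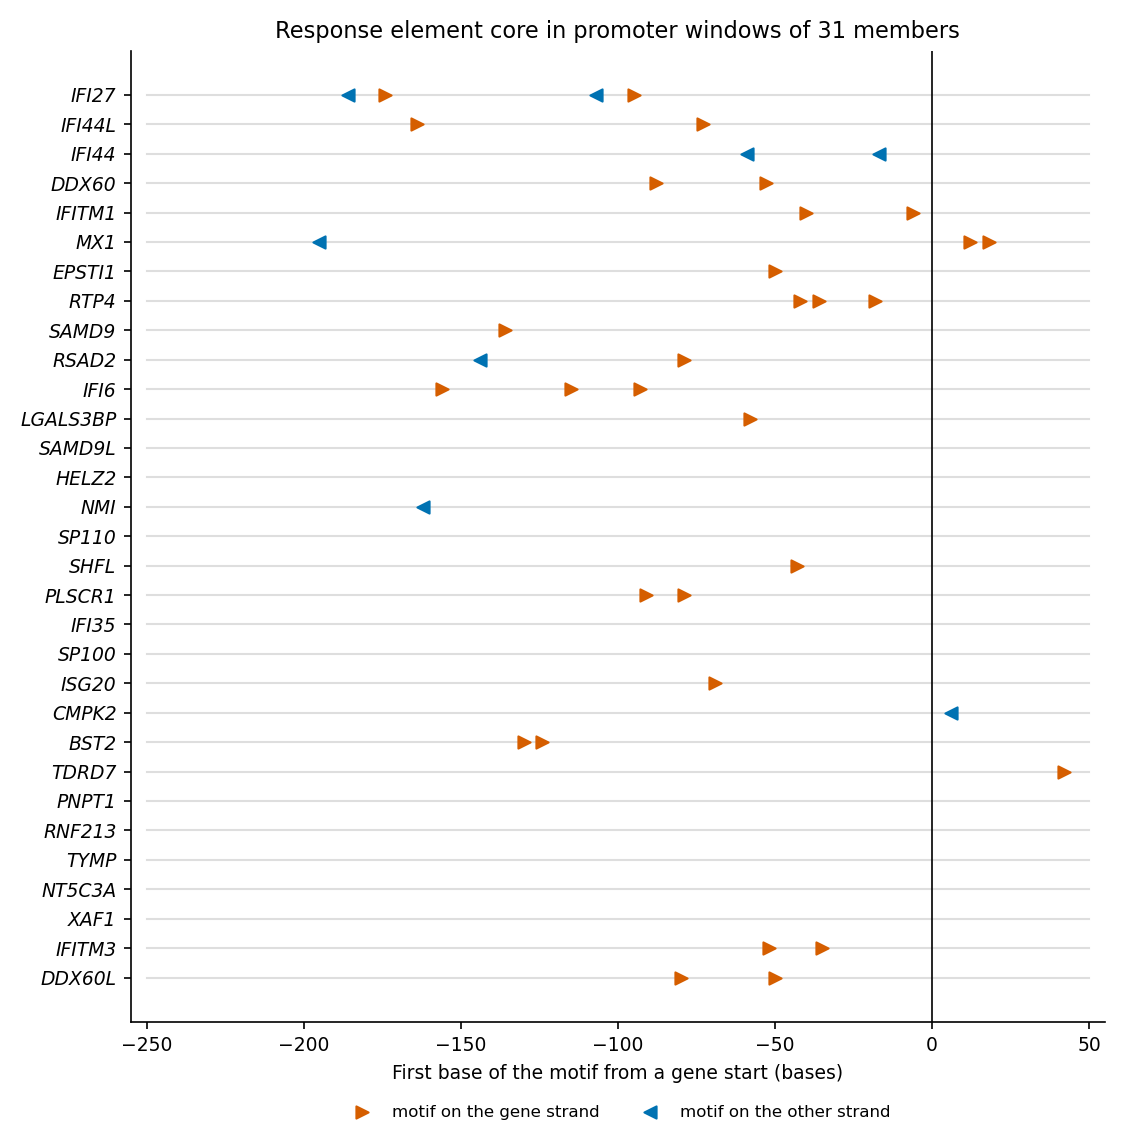
Position of each match to the response element core, in bases from a gene start, for the 31 members with a promoter window (rows, measured members in order of their difference, then IFITM3 and DDX60L). Triangles pointing right mark matches on the gene's strand and triangles pointing left those on the other strand, a member with several starts having a mark for each. Of 35 positions counted by member, 21 lie within 100 bases before a start.

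Of the 7 membrane proteins 6 were measured, and all 6 rose, with a median difference of 3.74. IFITM1, which hinders fusion of virus and cell membranes, had 11.78 and 11.80 in the mimic arrays and 6.86 and 6.89 in the control arrays. Its difference was 4.91 (SE 0.117, adjusted p = 0.000163), a 30.1-fold change, beside SDs of 0.012 in the mimic and 0.021 in the control arrays. The neighbouring paralog IFITM2 had 8.96 and 9.05 in the mimic arrays and 7.18 and 7.79 in the control arrays, with no overlap, and its difference was 1.52 (SE 0.224, adjusted p = 0.0419), on 2 probesets of which limma called neither. That call was lost under 5 of 14 alternatives, among them without mimic replicate 1 (adjusted p = 0.0874) and without mimic replicate 2 (adjusted p = 0.0957), when only probesets brighter than the median were kept (adjusted p = 0.0531) and on the brightest probeset (adjusted p = 0.157), at differences between 1.23 and 1.56. For IFITM3, the third of the cluster, the 1 probeset read 2.82 and 2.92 in the mimic arrays and 2.98 and 2.76 in the control arrays, under the filter level of 4.09 and brighter than 1.75% of all probesets. With no filter its difference was 0.00 (limma adjusted p = 0.997), so the array gave no usable reading of IFITM3. The IFITM genes are close paralogs, and probes that read more than one of them cannot be told apart here.

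BST2, or tetherin, which holds budding virions at the cell surface, had 9.01 and 9.39 in the mimic arrays and 6.71 and 7.33 in the control arrays. It rose by 2.18 (SE 0.251, adjusted p = 0.0196), and its control arrays were 0.62 apart, the widest control gap of any member. PLSCR1, a scramblase that moves phospholipids between membrane leaflets, had 10.01 and 10.12 in the mimic arrays and 7.28 and 7.08 in the control arrays and rose by 2.89. The dendritic cell lysosomal protein LAMP3 had 10.31 and 10.20 in the mimic arrays and 5.70 and 5.62 in the control arrays, and rose by 4.60 (SE 0.124, adjusted p = 0.000194). LAMP3 was read by 10 probesets with differences of 0.90 to 6.36, of which 8 were called. RTP4, a chaperone that helps receptors reach the cell surface, had 8.66 and 8.41 in the mimic arrays and 4.04 and 3.55 in the control arrays and rose by 4.74 (SE 0.206, adjusted p = 0.000549). Its control level lay under the median of the liver and neuron genes, and 3 of its 4 probesets passed the filter only through the mimic arrays. On the 1 that reached the filter level in the control arrays the difference was 3.26.

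All 6 GTPases and nucleotide enzymes rose, with a median of 2.50. MX1, the cytoplasmic GTPase that blocks influenza and other viruses, had 11.71 and 11.87 in the mimic arrays and 6.90 and 7.10 in the control arrays, and rose by 4.79 (SE 0.14, adjusted p = 0.000218), a 27.7-fold change. MX2, its neighbour on chromosome 21, which acts on the HIV capsid, had 7.28 and 7.55 in the mimic arrays and 4.69 and 4.62 in the control arrays and rose by 2.76. All 15 probesets of MX1 were called higher, and 10 of the 16 of MX2.

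RSAD2 and CMPK2 overlap head to head on chromosome 2 and both act on nucleotides, RSAD2 (viperin) making a chain-terminating form of CTP and CMPK2 being a mitochondrial nucleotide kinase. RSAD2 had 8.29 and 7.99 in the mimic arrays and 4.12 and 3.60 in the control arrays, and rose by 4.28. Its control level lay under the median of the liver and neuron genes, and 5 of its 8 probesets passed the filter only through the mimic arrays. The 3 that reached the filter level in the control arrays gave 3.89, and 2 of them were called. CMPK2 had 6.89 and 6.68 in the mimic arrays and 4.66 and 4.42 in the control arrays, and rose by 2.24. The probesets of CMPK2 were uneven. On 4 of 9 limma called the difference, at 2.75 to 4.80, and the other 5 lay between -0.16 and 1.88. The 7 that reached the filter level in the control arrays gave 1.61. With its brightest probeset, chosen with the mimic arrays included, CMPK2 had 4.80, and RSAD2 had 5.66 and missed the threshold (adjusted p = 0.0977).

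NT5C3A, a pyrimidine nucleotidase, had 8.81 and 9.01 in the mimic arrays and 7.54 and 7.51 in the control arrays and rose by 1.39 (adjusted p = 0.0103). Of its 4 probesets 3 passed the filter, with differences of 0.91, 0.99 and 2.26, none of them called. With no filter, and so on all 4, the gene's difference was lower, at 0.93 (limma adjusted p = 0.00162). The gene missed the threshold with the median of probesets (0.91, adjusted p = 0.0833) and with the brightest (0.99, adjusted p = 0.272). TYMP, thymidine phosphorylase, had 6.68 and 6.52 in the mimic arrays and 5.16 and 4.92 in the control arrays and rose by 1.56 (adjusted p = 0.00993). Its probesets were also uneven, with 2 of 10 called, at 3.74 and 3.91, and the others between -0.14 and 2.01. Its brightest probeset gave 3.91. The annotation places TYMP in overlap with SCO2, and which transcript each probeset reads was not tested.

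Of 9 members that act on RNA or translation, 8 were measured and all 8 rose, with a median of 3.07. DDX60, a helicase-like protein of the RNA sensing pathway, had 9.79 and 9.90 in the mimic arrays and 4.37 and 4.12 in the control arrays, and rose by 5.60 (SE 0.143, adjusted p = 0.000163), a 48.4-fold change. It had 41 probesets, all with both mimic arrays above both control arrays and 40 called higher, with differences of 3.61 to 6.71. Of the 20 that reached the filter level in the control arrays, 19 were called. HELZ2, a helicase first known as a nuclear receptor coactivator, had 8.95 and 8.94 in the mimic arrays and 5.72 and 5.66 in the control arrays and rose by 3.25. Its brightest probeset gave 1.10 and missed the threshold (adjusted p = 0.106), while 24 of its 29 probesets were called.

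The exonuclease ISG20, which degrades viral RNA, had 6.78 and 6.80 in the mimic arrays and 4.35 and 4.47 in the control arrays, and rose by 2.38, or 3.83 on its brightest probeset. PNPT1, the polynucleotide phosphorylase of mitochondria, had 10.80 and 10.83 in the mimic arrays and 8.75 and 8.82 in the control arrays, and rose by 2.03, or 1.77 on its brightest probeset (adjusted p = 0.0712). SHFL, which inhibits programmed ribosomal frameshifting, had 7.93 and 8.13 in the mimic arrays and 5.21 and 5.07 in the control arrays and rose by 2.89. Of its 12 probesets 8 were called, and the differences ran from 0.19 to 5.64, with the brightest at 2.99 (adjusted p = 0.0559). The annotation places SHFL in overlap with ANGPTL6.

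SAMD9 and SAMD9L, neighbouring paralogs on chromosome 7 that restrict poxviruses, both rose. SAMD9 had 8.98 and 9.11 in the mimic arrays and 4.66 and 4.70 in the control arrays, a difference of 4.37 (SE 0.124, adjusted p = 0.000218). SAMD9L had 7.61 and 7.56 in the mimic arrays and 4.03 and 3.86 in the control arrays, a difference of 3.64. In the control arrays both lay under the median of the liver and neuron genes, and 14 of 15 and 17 of 20 of their probesets were called higher. Of the 11 and 6 that reached the filter level in the control arrays, 9 and 3 were called.

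TDRD7, a Tudor domain protein found with RNA granules, had 8.52 and 8.82 in the mimic arrays and 6.30 and 6.72 in the control arrays and rose by 2.16 (adjusted p = 0.00939). Of its 19 probesets, 18 had both mimic arrays above both control arrays, at differences from 1.62 to 3.08, and 9 were called. The exception was its brightest, with 11.26 and 11.05 in the mimic arrays and 11.18 and 11.27 in the control arrays. On that probeset alone the difference was -0.07 (adjusted p = 0.872), the 1 reversal of sign among the members under any alternative run.

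Of the 6 genes of nuclear bodies and transcription, 5 were measured and all 5 rose, within a narrow band of 2.37 to 3.07. PML, which builds the nuclear bodies named after it, had 8.55 and 8.67 in the mimic arrays and 6.17 and 6.30 in the control arrays and rose by 2.37. SP100, a constant component of those bodies, had 8.53 and 8.41 in the mimic arrays and 5.68 and 5.62 in the control arrays and rose by 2.82, or 2.03 on its brightest probeset (adjusted p = 0.0741). SP110, a paralog of SP100 nearby on chromosome 2, had 8.75 and 8.64 in the mimic arrays and 5.68 and 5.81 in the control arrays and rose by 2.95. The annotation places SP110 in overlap with SP140. NMI and IFI35 bind each other, and both rose. NMI had 7.79 and 7.45 in the mimic arrays and 4.57 and 4.53 in the control arrays, a difference of 3.07. IFI35 had 10.87 and 11.02 in the mimic arrays and 7.94 and 8.30 in the control arrays, a difference of 2.83. All 7 probesets of IFI35 had both mimic arrays on top, with differences of 2.59 to 3.16, the most even of the members read by more than 3 probesets.

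The last group, of 8 genes, holds the largest differences and the member that missed the threshold. IFI27, a small hydrophobic protein of mitochondria and the nuclear envelope, had 11.14 and 11.35 in the mimic arrays and 4.88 and 4.61 in the control arrays. Its means were 11.25 ± 0.146 and 4.75 ± 0.193 (SD, n = 2), and it rose by 6.50 (SE 0.157, adjusted p = 0.000163), a 90.6-fold change and the fourth largest increase of all genes tested. On 1 of its 8 probesets the mimic arrays read 12.62 and 12.77 and the control arrays 3.47 and 4.19, a difference of 8.87, the largest of any member probeset. The lowest of the 8 was 1.95, and 6 were called. The brightest gave 4.96, and the 6 that reached the filter level in the control arrays gave 5.99. IFI6, of the same family, had 11.82 and 11.87 in the mimic arrays and 7.88 and 7.85 in the control arrays and rose by 3.98. Both groups of IFI6 were tight, with SDs of 0.033 in the mimic and 0.020 in the control arrays.

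IFI44L and IFI44, paralogs side by side on chromosome 1, both rose. IFI44L had 9.23 and 9.20 in the mimic arrays and 3.61 and 3.33 in the control arrays, a difference of 5.75 (SE 0.147, adjusted p = 0.000163). IFI44 had 9.46 and 9.62 in the mimic arrays and 4.15 and 3.72 in the control arrays, a difference of 5.61 (SE 0.183, adjusted p = 0.000265). In the control arrays both lay under the median of the liver and neuron genes, and all 15 and 12 of their probesets were called higher, but 13 and 7 of these passed the filter only through the mimic arrays. On the 2 and 5 that reached the level in the control arrays, the differences were 6.02 for IFI44L and 4.90 for IFI44. On the brightest probeset they were 6.25 and 7.79. EPSTI1, first described as a gene induced in breast epithelial cells by stromal fibroblasts, had 8.28 and 8.65 in the mimic arrays and 3.75 and 3.69 in the control arrays and rose by 4.74 (SE 0.163, adjusted p = 0.00029). Its 11 probesets were uneven, at 0.88 to 6.48. The 3 that reached the filter level in the control arrays gave 3.57, and the brightest, chosen with the mimic arrays included, gave 6.16.

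The secreted glycoprotein LGALS3BP, which binds galectins, had 11.01 and 11.03 in the mimic arrays and 7.07 and 7.27 in the control arrays and rose by 3.85. RNF213, a giant ubiquitin ligase with ATPase activity, had 9.01 and 9.20 in the mimic arrays and 7.31 and 7.47 in the control arrays and rose by 1.71 (adjusted p = 0.00616). RNF213 had 46 probesets, the most of any member, all with both mimic arrays on top and 18 called, with differences of 0.72 to 3.24. Another 23 probesets carry the symbol KIAA1618, an older name for part of the same gene, and were kept apart. They gave 1.85 (SE 0.184, limma adjusted p = 0.0124), with 9.04 and 9.22 in the mimic arrays and 7.06 and 7.49 in the control arrays. With its brightest probeset RNF213 had 1.61 and missed the threshold (adjusted p = 0.0699).

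XAF1, which binds and counters the apoptosis inhibitor XIAP, was read by 1 probeset. It had 8.02 and 7.33 in the mimic arrays and 6.65 and 6.24 in the control arrays, with no overlap between the groups but the widest mimic spread of the members. Its difference was 1.23 (SE 0.275, adjusted p = 0.0979), with a 95% interval of 0.53 to 1.92. It passed the threshold under 6 of 14 alternatives, among them without mimic replicate 2 (1.58, adjusted p = 0.0428), without control replicate 1 (1.44, adjusted p = 0.00251), without control replicate 2 (1.02, adjusted p = 0.0322), with dim probesets kept in (adjusted p = 0.0089) and where the prior variance followed intensity (adjusted p = 0.0153). Without mimic replicate 1 it had 0.88 (adjusted p = 0.279).

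At the level of single probesets, 454 of the members' 467 passed the filter. Limma called 333 of them higher and 0 lower, where 0.797% of all 174359 probesets tested were called higher. Both mimic arrays lay above both control arrays on 447 of them, against 21.0% of all probesets. Of the 454, however, 109 reached the filter level of 4.09 only through their mimic arrays, so these counts hold probesets that had to differ. The other 345 reached it in the control arrays, and in a fit of all 172626 such probesets limma called 223 of them higher and 0 lower, where 0.541% of all were called higher. On 339 of the 345 both mimic arrays were on top, against 19.8% of all. Among the 454 the difference was below 0 on 3, from CMPK2, TDRD7 and TYMP, at -0.16, -0.07 and -0.14. In 28 of the 33 members every probeset above the filter had both mimic arrays on top, the others being CMPK2, NMI, SHFL, TDRD7 and TYMP. Probesets of a gene are not replicates of the treatment, and these counts describe how evenly a gene's exons moved.

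**Figure D4:**
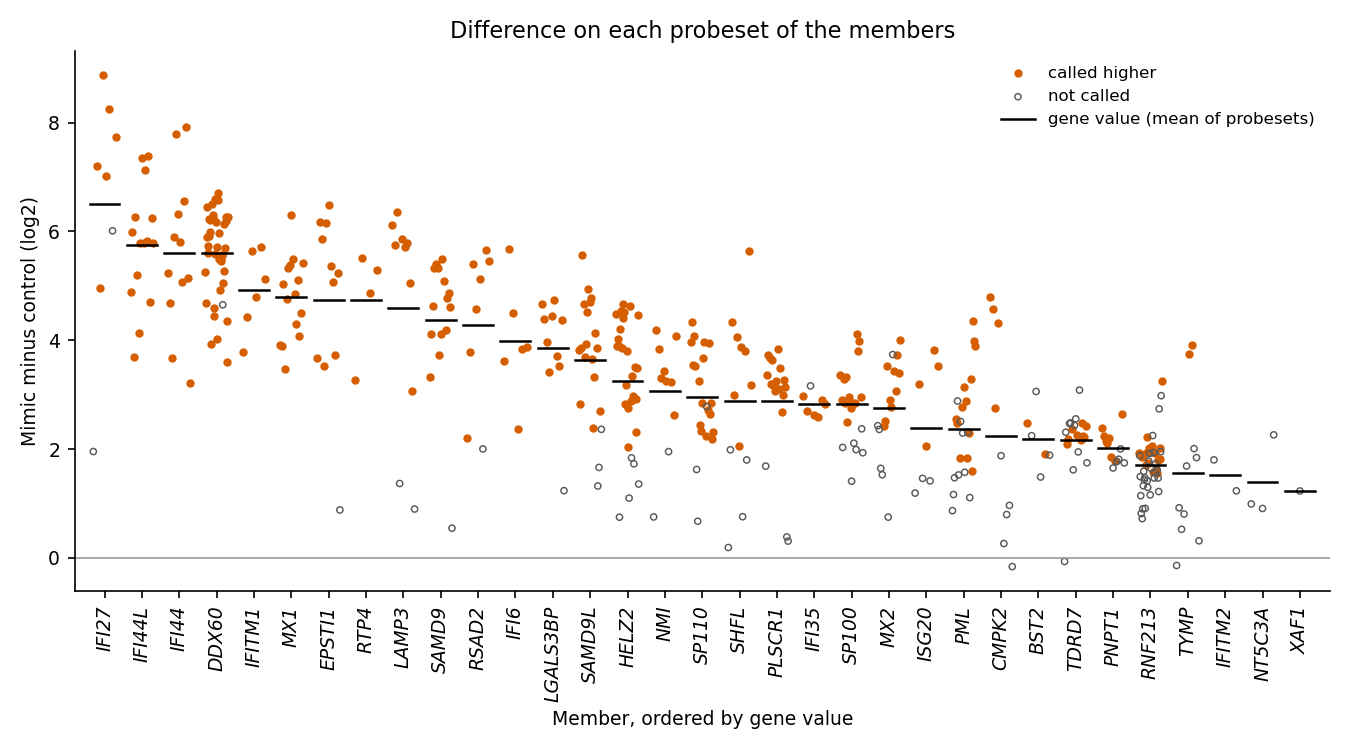
Difference between mimic and control (log2) on each probeset above the filter, by member, with filled orange points for probesets called higher, open points for those not called and a black bar at the gene value. IFI27 spans 1.95 to 8.87, RNF213 spans 0.72 to 3.24, and CMPK2, TDRD7 and TYMP each have 1 point below 0.

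Of 22 genes of interferon signalling outside the members, 18 were measured, 6 rose and none fell, with a median of 0.50. Over all genes tested, 1.53% were called higher and 2.32% in either direction. By role, the ligand IFNL1, a type III interferon, had 7.10 and 7.54 in the mimic arrays and 4.20 and 3.87 in the control arrays, a difference of 3.28. The control mean of IFNL1, 4.03, lay under the median of the liver and neuron genes, 4.74. It also lay under the filter level of 4.09, so the mimic arrays had a part in IFNL1 passing the filter. The factors IRF1, IRF9, STAT2 and IRF7 rose by 3.36, 2.23, 2.00 and 1.84, and USP18, which shuts off the type I receptor, by 2.61. The measured receptor chains IFNAR1, IFNAR2, IFNGR1, IFNGR2, IFNLR1 and IL10RB had -0.35, 0.08, 0.41, 0.59, 0.10 and 0.39, and none passed. JAK1, JAK2 and TYK2 had -0.59, 0.85 and -0.03, and the feedback inhibitors SOCS1 and SOCS3 had 1.67 (adjusted p = 0.0760) and 0.01, none of which passed either. IRF3, a factor that acts upstream of interferon, had -0.16.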

How the data were processed

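Total RNA of 4 T-47D samples, 2 per group, was read on Affymetrix exon arrays. The deposited values are log2 levels, 1 per probeset and array, from the authors, and the submitters' processing notes name Partek, RMA and hg18, giving neither versions nor the order. Interquartile ranges differed between arrays (4.18 to 4.52), so the deposited probeset values did not share 1 distribution. Whether probes were quantile-normalized before they were combined into probesets cannot be told from this. The values were used as given.

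Probesets were named from the platform annotation at GEO, with older symbols brought up to date by RefSeq synonyms. A gene's level was the mean of its probesets naming 1 gene whose 4-array mean reached the 25th percentile of all probesets (4.09). This filter used both groups, and the same level applied to the control arrays alone is an added alternative. The comparison used limma 3.58.1 (R 4.3.3; lmFit, eBayes, 2 residual degrees of freedom, 5.29 with the prior), with adjustment over all genes or probesets. SD is the spread of a group's 2 arrays and SE that of limma. The fit was tested on simulated data. Promoter letters came from RefSeq, and gene coordinates of other builds were not used. No detection calls were used, and the number of arrays limits the precision. All members are named, with full statistics for the 8 largest increases, for any member missing the threshold and for some near it.

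The members and lists were chosen with earlier results of these data known. Alternatives were a replicate block, 2 normalizations, 3 other filters, the median or brightest probeset, an intensity trend, robust eBayes and leaving out each array.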

Additional observations from a re-analysis of the deposited data

How the results depend on the processing

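Each of the 33 members was refitted under 14 alternatives. Of these 462 values, 442 kept their direction and their side of the threshold, 13 no longer passed, 6 newly passed (all XAF1) and 1 changed sign, that of TDRD7 with its brightest probeset (-0.0657), where the cause was not tested. The members that rose numbered 23 with the brightest probeset and 31 to 33 under the others. The normalizations moved no call of a member. All genes called, 365 as reported, came to 1435 with no filter, 124 with the brightest probeset and 1596 with an intensity trend, and to between 173 (without mimic replicate 1) and 1682 (without control replicate 1) when an array was left out, with 187 without mimic replicate 2 and 686 without control replicate 2. An array left alone in its group was assumed to vary as the other group did. The arrays share replicate numbers across groups, and the deposited design speaks of pairs without saying what they share. Deviations of same-numbered arrays correlated with r = 0.44 over all genes, which with 2 pairs is a hint only. With a replicate block 439 genes were called and 32 members rose, IFITM2 being lost (adjusted p = 0.0501) and XAF1 gained (adjusted p = 0.0405), and no other member's call changed. The filter applied to the control arrays alone was chosen after seeing the data and left 32 members higher. Members near the background level in the control arrays have differences that signal over background limits.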
